A study of Mus musculus with 4 samples.

Results

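Hox genes encode homeodomain transcription factors that lie in 4 clusters, HoxA to HoxD, and give cells of the trunk, neck and limbs their position along the body axis. The 38 Hox genes examined here were chosen by name, 10 each in HoxA and HoxB and 9 each in HoxC and HoxD, out of 55487 genes in the count table. All 38 were found. A gene is called counted in a library where it had at least 1 count, and silent in the table where it had 0.

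The neural crest cells that build the jaw and the dental mesenchyme are known as Hox-negative, and their identity is set by other homeobox genes such as the Msx and Dlx families. Blood progenitors, in contrast, are known to express several HoxA and HoxB genes, among them Hoxa9 and Hoxa10, and stromal cells of the trunk keep the Hox pattern of their place of origin. HOX proteins bind DNA together with PBX and MEIS partners. Methyltransferases of the KMT2 family and the Polycomb complexes maintain the active and silent states of the clusters.

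The libraries came from cells of the lower incisor of mice of strain C57, taken at postnatal day 30, labelled as dental pulp and dental progenitor cells. Flow cytometry had kept the cells negative for CD45 (a marker of leukocytes), Ter119 (erythroid cells) and Tie2 (endothelial cells). The 2 control libraries, labelled WT, had the genotype Ptipf/f, in which both Ptip alleles are floxed, and the 2 knockout libraries had Ptipf/f;Sp7-cre. Ptip (gene symbol Paxip1) codes for a protein of the KMT2C and KMT2D methyltransferase complexes, and Sp7-cre drives recombination in the bone and odontoblast lineage, so other sorted cells can keep the gene. Controls carried no Cre, so effects of Cre and of the deletion cannot be told apart. Whether each library is a separate animal or a pool is not given, so a p-value reflects the spread among these 4 libraries, which may be technical.

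Libraries held 15154246 to 19142757 counts, with the knockouts the deeper group. The targeted gene Paxip1 was counted 407 and 696 times in the control libraries against 111 and 71 times in the knockout libraries (log2 fold change -2.91, SE 0.48, adjusted p = 0.15 in edgeR's quasi-likelihood test). All 4 libraries held counts of both the X-linked Xist and the Y-linked Ddx3y, in unequal proportions. Xist had 838, 3308, 2272 and 104 counts and Ddx3y 620, 139, 39 and 2083, in the order control 1, control 2, knockout 1, knockout 2. Control 1 had the highest summed level of leukocyte and B cell markers. Genes of the labelled tissue were counted in every library: Msx1 ranged from 724 to 2912 CPM (counts per 1000000, on library sizes scaled by TMM) and Dlx2 from 77.2 to 490 CPM. Ameloblast genes were also counted in every library, at levels that differed by gene and library. Ambn was at 18171 to 52583 CPM, and Amelx ranged from 80.0 CPM in knockout 2 to 7421 CPM in control 1.

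The 250 bases before the RefSeq start site (build GRCm38.p6) are shown for 3 members, 5′ to 3′ on the gene's strand, with each CG dinucleotide in capitals. Hoxa9 was the member with the most counts, Hoxd8 was counted in both groups, and Hoxa13 was at 0 throughout, so the set spans counted and silent loci.
Hoxa9, chr6:52227371-52227620, minus strand: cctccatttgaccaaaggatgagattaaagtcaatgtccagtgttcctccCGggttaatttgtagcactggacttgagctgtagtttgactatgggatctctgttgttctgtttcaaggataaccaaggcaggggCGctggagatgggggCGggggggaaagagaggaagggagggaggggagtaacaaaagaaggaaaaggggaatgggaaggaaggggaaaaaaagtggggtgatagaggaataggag
Hoxd8, chr2:74704365-74704614, plus strand: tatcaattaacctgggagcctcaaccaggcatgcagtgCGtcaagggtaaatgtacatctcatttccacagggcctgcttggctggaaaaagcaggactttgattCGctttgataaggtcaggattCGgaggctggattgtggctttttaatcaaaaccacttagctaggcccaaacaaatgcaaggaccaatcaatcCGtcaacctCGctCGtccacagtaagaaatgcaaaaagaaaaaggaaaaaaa
Hoxa13, chr6:52260881-52261130, minus strand: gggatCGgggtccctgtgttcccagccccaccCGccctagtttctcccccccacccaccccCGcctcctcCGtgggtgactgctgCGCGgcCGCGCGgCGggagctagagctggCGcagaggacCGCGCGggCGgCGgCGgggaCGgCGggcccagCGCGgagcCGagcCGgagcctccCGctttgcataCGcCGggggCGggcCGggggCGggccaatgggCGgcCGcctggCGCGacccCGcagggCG
These stretches held 3, 6 and 35 CG dinucleotides. The RefSeq table had such a stretch for 22 of the 38 members, 24 stretches in all, with a median of 12.5 CG against 6 over all 32851 promoters of the table. Stretches of counted members held 3 to 31 CG (median 13, 13 stretches) and those of silent members 2 to 35 (median 12, 11 stretches), so CG content overlapped widely between them. The letters TGATTNAT, a form of the joint HOX and PBX binding motif, were searched on both strands and found in 0 of the 13 stretches of counted members and in 2 of the 11 of silent members, Hoxa2 and Hoxd11. They occurred in 2.82% of all promoters in the table. A match or its absence is a description of these letters only.

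Over the 38 members, 17 were counted in at least 1 library and 21 were at 0 in all 4. Among all 21897 protein-coding genes, 82.9% were counted in at least 1 library. Control 1 counted 7 members, control 2 counted 13, knockout 1 counted 9 and knockout 2 counted 3. These were 18.4%, 34.2%, 23.7% and 7.89% of the members, where the shares of protein-coding genes were 69.5%, 78.3%, 74.1% and 71.4%. Hoxa7 and Hoxa9 were the 2 members counted in all 4 libraries, whereas 64.2% of protein-coding genes were. A count of 0 in a library allows up to 3 counts, which is 0.209 CPM in control 1, 0.191 in control 2, 0.154 in knockout 1 and 0.168 in knockout 2. For the 21 members at 0 throughout, the limit over the 4 libraries summed was 0.0445 CPM. These limits cover counting error only, since the libraries carry no molecular identifiers.

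**Figure D1:**
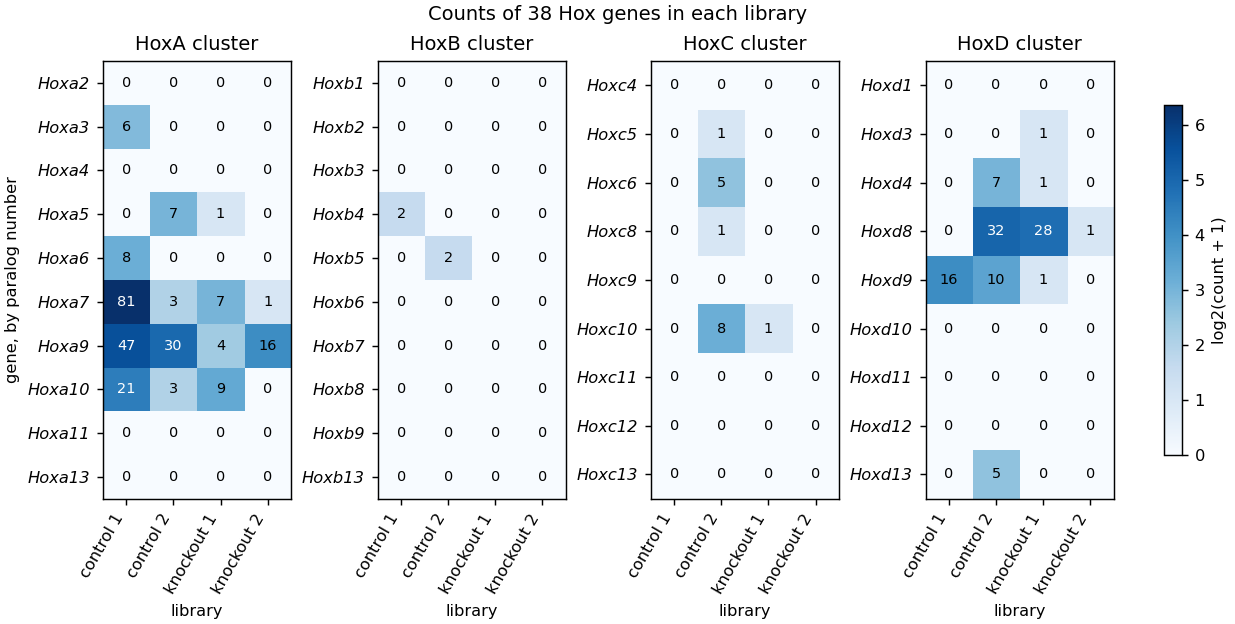
Counts as deposited for each of the 38 Hox genes (rows, by cluster and paralog number) in the 4 libraries (columns), with shading on a log2(count + 1) scale. The filled cells lie between Hoxa3 and Hoxa10, between Hoxd3 and Hoxd13 and, mostly in control 2, at Hoxc5 to Hoxc10, while HoxB holds 4 counts in all.

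The members held 181 counts in control 1, 114 in control 2, 53 in knockout 1 and 18 in knockout 2. On the CPM scale, corrected for library size, the sums were 12.6 and 7.26 in the controls against 2.72 and 1.01 in the knockouts. Both controls lay above both knockouts, and the deeper group held fewer Hox counts. A few genes carried each sum. Hoxa7 made up 44.8% of the Hox counts of control 1 and Hoxd8 52.8% of those of knockout 1, while Hoxa9 made up 88.9% of those of knockout 2. In control 2 Hoxd8 had the largest share, 28.1%. The order of the sums was not the same without Hoxa7, when they were 6.95 and 7.06 CPM in the controls against 2.36 and 0.953 in the knockouts.

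By position on the body axis, the middle and posterior genes held nearly all counts. Of 15 middle members (paralog numbers 4 to 8), 10 had a count, with 188 counts in all. Of 16 posterior members (9 to 13), 5 had a count, with 171 in all. Of 7 anterior members (1 to 3), 2 had a count, with 7 in all, and those were Hoxa3 and Hoxd3.

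HoxA lies on chromosome 6 (52162417 to 52260880, minus strand, GRCm38) and was the cluster with the most counts, 244 over the 4 libraries. Of its 10 members, Hoxa3, Hoxa5, Hoxa6, Hoxa7, Hoxa9 and Hoxa10 were counted, and Hoxa2, Hoxa4, Hoxa11 and Hoxa13 were at 0 throughout. The counted genes from Hoxa5 to Hoxa10 are neighbours in the cluster.

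Hoxa9 (ENSMUSG00000038227, chromosome 6, 52223100 to 52231089) is a factor of blood stem and progenitor cells and of myeloid leukaemia. Controls 1 and 2 held 47 and 30 counts of it, knockouts 1 and 2 only 4 and 16. In CPM these were 3.27 and 1.91 against 0.205 and 0.897, means of 2.59 ± 0.961 and 0.551 ± 0.489 (SD, n = 2 each). Both controls were above both knockouts. In edgeR the log2 fold change, knockout over control, was -2.22 (SE 1.14), and the adjusted p over 17128 tested genes was 0.382, which did not pass 0.05. Its exons share 85 bases with the microRNA gene Mir196b and with no other annotated gene.

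Hoxa7 (ENSMUSG00000038236, 52214491 to 52221854), a close neighbour with a role in blood progenitors as well, had 81 counts in control 1 and 3, 7 and 1 in control 2, knockout 1 and knockout 2. Control 1 alone was high, at 5.63 CPM, whereas the other libraries were at 0.0560 to 0.359 CPM, and the groups overlapped. The gene did not pass the low-count filter, which asks for enough counts in 2 libraries. Of its exon bases, 20.4% lie opposite exons of Hoxaas3, a noncoding gene on the other strand, and the libraries do not mark strand.

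Hoxa10 (ENSMUSG00000000938, 52231197 to 52240854), another regulator of blood progenitors and of the uterus, was counted 21 and 3 times in the controls against 9 and 0 times in the knockouts. Control 1 was highest and knockout 1 lay above control 2, so the groups overlapped. It was not kept by the filter either. Hoxa5, a gene of lung and neck development, had 7 counts in control 2 and 1 in knockout 1, Hoxa6 had 8 in control 1 only, and Hoxa3, which patterns the pharyngeal arches behind the jaw, had 6 in control 1 only. Hoxaas3, whose exons overlap those of Hoxa3 on the other strand, also had 6 counts in control 1 and 0 elsewhere.

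HoxD lies on chromosome 2 (74668310 to 74765142, plus strand) and held 102 counts. Hoxd8, Hoxd9, Hoxd4, Hoxd13 and Hoxd3 were counted and the other 4 members were at 0. Hoxd8 (ENSMUSG00000027102, 74704615 to 74707933), a gene expressed in trunk mesoderm and the neural tube, was counted 0 and 32 times in controls 1 and 2 against 28 and 1 times in knockouts 1 and 2. The difference within each group was thus larger than that between the groups, and the groups overlapped. In CPM the means were 1.02 ± 1.44 and 0.746 ± 0.975 (SD, n = 2 each), with a log2 fold change of -0.45 (SE 1.98, adjusted p = 0.944 in edgeR). The sign of this value changed when control 2 or knockout 2 was left out (6.66 and 0.53).

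Hoxd9 (ENSMUSG00000043342, 74697727 to 74700208), a limb and trunk gene of the posterior group, was counted 16 and 10 times in the controls against 1 and 0 times in the knockouts. Levels were 1.11 and 0.636 CPM against 0.0513 CPM and 0. Both controls were above both knockouts, but the gene passed the filter only through the controls. Summed over each group, 26 counts stood against 1, a ratio of 32.3 on the CPM scale with a 95% exact interval of 5.30 to 1323 that covers counting error only. The log2 fold change was -4.70 (SE 1.66), with an unadjusted p of 0.0256 and an adjusted p of 0.224 in edgeR. Of the remaining HoxD genes, Hoxd4 had 7 counts in control 2 and 1 in knockout 1, Hoxd13, the gene of digits and the hindgut, had 5 in control 2, and Hoxd3 had 1 in knockout 1. Hoxd3 and Hoxd4 share exon bases with each other, so their counts are uncertain.

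**Figure D2:**
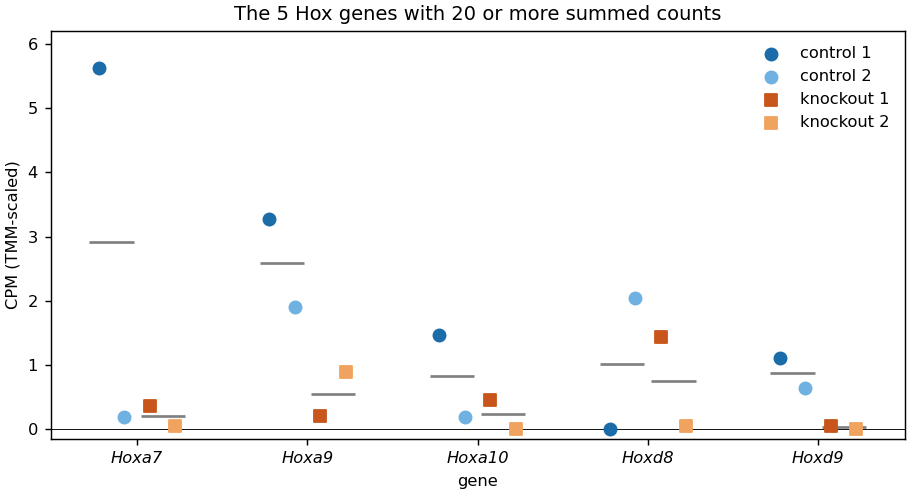
TMM-scaled CPM (library sizes scaled for composition) of the 5 Hox genes with at least 20 summed counts, with circles for controls, squares for knockouts and grey bars for group means. Hoxa9 and Hoxd9 show both controls above both knockouts, whereas control 1 alone is high for Hoxa7 and Hoxd8 is high in control 2 and knockout 1.

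HoxC, on chromosome 15 (102921103 to 103036852, plus strand), held 16 counts, of which 15 were in control 2. There, Hoxc10 had 8 counts, Hoxc6 had 5, and Hoxc5 and Hoxc8 had 1 each. Hoxc5 and Hoxc10 share exon bases, so their counts are uncertain. Hoxc10 had 1 more count in knockout 1, and all 9 members were at 0 in control 1 and in knockout 2. These are genes of the thorax, lower trunk and limbs. HoxB, on chromosome 11 (96194316 to 96368256, plus strand), was nearly silent. It held 2 counts of Hoxb4, a gene of blood stem cells, in control 1 and 2 counts of Hoxb5 in control 2. Both knockouts held 0 counts of all 10 HoxB members, and Hoxb1, Hoxb2, Hoxb3, Hoxb6, Hoxb7, Hoxb8, Hoxb9 and Hoxb13 were at 0 in every library.

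Many members were counted in 1 library only. This held for 9 of the 17 counted members, each with at most 8 summed counts. The share was 8.26% among the 18144 protein-coding genes with a count, which are of any level, so the comparison is not matched for level. Of these 9, 3 were in control 1, 5 in control 2, 1 in knockout 1 and 0 in knockout 2. The 5 members with at least 20 summed counts ranged from 27 to 97 counts in all, and 3 of them (Hoxa10, Hoxd8 and Hoxd9) had a library at 0. Among 2047 protein-coding genes with 20 to 100 summed counts, 56.4% also had a library at 0, so gaps of this kind were common at this depth.

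Levels between genes were compared per kilobase of annotated exon. The highest mean was that of Hoxa7, at 0.542 CPM per kilobase, followed by Hoxd8 (0.321), Hoxa9 (0.281), Hoxd9 (0.211), Hoxa10 (0.161) and Hoxa6 (0.159). The order of these means rests on single libraries: Hoxa7 ranged from 0.0195 to 1.96 CPM per kilobase over the 4 libraries and Hoxd8 from 0 to 0.742, so neighbours in the order do not differ beyond their spread. The median of the 18144 protein-coding genes with a count was 2.76 CPM per kilobase. Hoxa7 exceeded 29.3% of these genes and Hoxd3, the lowest counted member, 0.325%, so all 17 lay below the median.

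**Figure D3:**
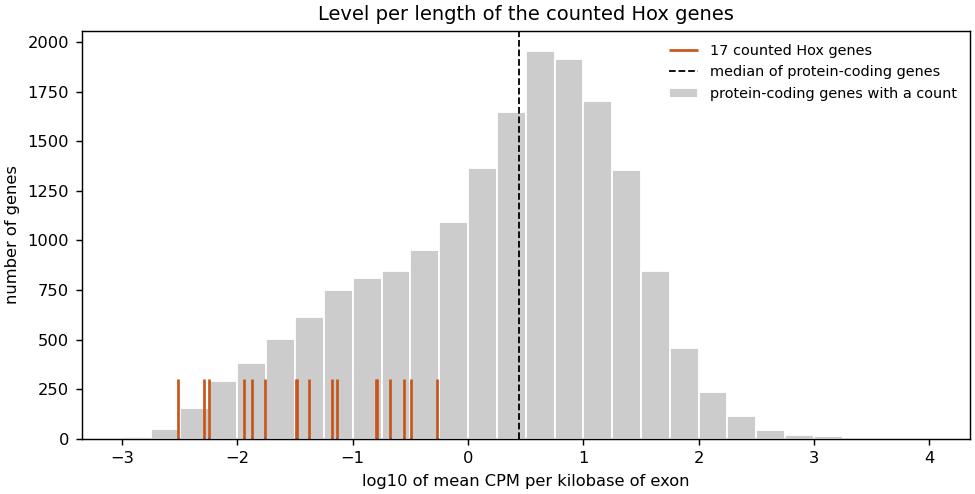
Mean CPM per kilobase of exon on a log10 axis for the 18144 protein-coding genes with a count (grey bars, number of genes), with the 17 counted Hox genes as orange lines and the median of 2.76 as a dashed line. All 17 Hox genes lie left of the median.

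Across the genotypes, 3 of the 38 members (Hoxa9, Hoxd8 and Hoxd9) passed the low-count filter, against 65.7% of protein-coding genes. By edgeR, 0 of the 3 rose and 0 fell at an adjusted p of 0.05. Over all 17128 tested genes the shares were 0.0% in either direction. At an unadjusted p under 0.05, Hoxd9 was lower and none was higher, where 9.89% of all tested genes were lower and 7.32% higher. Since Hoxd9 was kept by the filter only through the controls, nothing is read from this count. Both knockouts lay below both controls for Hoxa9 and Hoxd9, against 24.9% of all tested genes, and above them for 0 members, against 25.8%. Among genes with a count, tested or not, these 2 were 2 of 17 members, where the shares of all 31364 genes were 18.8% lower and 17.1% higher. DESeq2, limma-voom and edgeR without the filter also called 0 Hox genes, where DESeq2 called 2.72% higher and 5.7% lower of the 17361 genes it gave an adjusted p and unfiltered edgeR 1.43% and 3.2% of 31364 genes, so these shares have different denominators. DESeq2 gave Hoxd9 an unadjusted p of 0.0455 and no adjusted p, so that gene could not be called there. Hoxa7, which the low-count filter removed, had an unadjusted p of 0.0146 and an adjusted p of 0.114 in DESeq2 (log2 fold change -3.85), with the high value in control 1 alone. Lower at an unadjusted p under 0.05 were 6.97% of all genes in DESeq2 and 7.67% in unfiltered edgeR, where the adjusted p of Hoxa7 was 0.119. The other 35 members were not tested in the filtered fit.

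Markers of other cells differed between the same libraries. The 7 leukocyte markers, led by Laptm5, Coro1a, Cd53 and Ptprc, the gene of CD45, were counted in every library. Their summed level was 2572 and 842 CPM in controls 1 and 2 against 367 and 99.3 CPM in knockouts 1 and 2. Ptprc itself was at 140 and 144 CPM against 39.2 and 9.25 CPM, in cells sorted as CD45-negative. Tek, the gene of Tie2, was at 21.7 and 81.2 CPM against 44.8 and 41.8 CPM, in cells also sorted as Tie2-negative. The 11 B cell markers, led by Ighm and Cd79b, summed to 13787, 5154, 2036 and 363 CPM in the same order. The 15 blood progenitor markers, led by Cd34, Lyl1, Gfi1b and Kit, stood at 1048 and 946 CPM in the controls against 286 and 262 in the knockouts. The 15 neutrophil and myeloid markers, led by Mpo, stood at 792 and 470 against 308 and 148 CPM, and 12 erythroid markers, led by Hba-a1, at 527 and 507 against 125 and 131 CPM. The 8 T and NK cell markers stood at 195 and 85.8 against 31.6 and 14.2 CPM, with Cd3e and Cd8a at 0 throughout, and the 6 megakaryocyte and mast cell markers at 138 and 117 against 33.3 and 57.7 CPM. None of these markers passed the edgeR test over all genes. At an unadjusted p under 0.05, 11 of 11 B cell, 6 of 7 leukocyte and 9 of 15 blood progenitor markers were lower. So were 9 of 12 erythroid and 5 of 14 tested myeloid markers. The same held for 2 of 5 tested T and NK and 3 of 4 tested megakaryocyte and mast cell markers. In each of these lists 0 were higher, beside 9.89% lower and 7.32% higher among all tested genes. Lower markers were not limited to blood lists. They were 3 of 5 tested Schwann cell, 3 of 10 dental epithelium, 1 of 4 tested skeletal muscle and 1 of 8 endothelial markers, with 0 higher. Of 9 osteoblast and odontoblast markers, 2 were lower and 1 higher. Of 4 tested chondrocyte markers, 0 were lower and 2 higher, and of 6 pericyte and smooth muscle markers 0 were either.

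The HoxA sum was 11.3 CPM in control 1, 2.74 in control 2, 1.08 in knockout 1 and 0.953 in knockout 2. Like the sums of the blood cell lists above it was highest in control 1, then control 2, with both knockouts below. Single blood markers did not all have that order of the controls. Lyl1 was at 334 and 39.8 CPM in controls 1 and 2, but Cd34 at 219 and 592 and Kit at 50.3 and 99.9. Among megakaryocyte and mast cell markers, Cpa3 was at 90.7 and 36.5 CPM, but Pf4, Ppbp, Itga2b and Gp9 were higher in control 2. The blood progenitor sums (1048 and 946 CPM) and erythroid sums (527 and 507 CPM) differed less between the controls than the HoxA sum did. The summed dental epithelium markers were also highest in control 1 (63600 CPM), but lowest in control 2 (22812 CPM). Ambn held most of both sums (52583 and 18171 CPM), and no other marker of that list was lowest in control 2. Of these 10 markers, both knockouts lay below both controls for 6 and above them for 0. The shares of all tested genes were 24.9% and 25.8%. The 2 knockouts held 21 and 17 HoxA counts and cannot be ordered at this depth. Without Hoxa7 the HoxA counts were 82, 40, 14 and 16, and Hoxa9 alone was lower in knockout 1 than in knockout 2. Of 7 Hox genes known from blood progenitors (Hoxa5, Hoxa7, Hoxa9, Hoxa10, Hoxb2, Hoxb3 and Hoxb4), 5 were counted, and their sum was 10.5, 2.74, 1.08 and 0.953 CPM. But for 2 counts of Hoxb4 in control 1 these were HoxA counts, so this sum largely repeats the HoxA sum. HoxC and HoxD together went in another order. Their sum was 1.11 CPM in control 1, 4.39 in control 2, 1.64 in knockout 1 and 0.0560 in knockout 2. All 16 counts of control 1 were of Hoxd9 and 28 of the 32 counts of knockout 1 were of Hoxd8. The place of knockout 1 above control 1 thus rests on Hoxd8. Control 2 was also the highest library for endothelial markers (636, 1008, 531 and 474 CPM in the same order of libraries), Schwann cell markers (370, 523, 111 and 137 CPM), and skeletal muscle markers (17.2, 45.1, 6.30 and 9.08 CPM). It was highest as well for pericyte and smooth muscle markers (769, 1298, 457 and 1202 CPM) and osteoblast and odontoblast markers (18546, 41547, 15537 and 26504 CPM). Within these lists the genes differed. Col1a1 held 38662 of the 41547 CPM, and Dspp, Ibsp, Bglap and Phex were also highest in control 2. Runx2, Sp7 and Dmp1 were highest in knockout 2 and Alpl in control 1. Rgs5, Notch3 and Kcnj8 were highest in control 2, but Acta2, Myh11 and Cspg4 in knockout 2. The part of any of the listed cell types in the Hox counts was not tested. In bulk libraries, fewer cells of a type and less RNA per cell cannot be told apart.

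**Figure D4:**
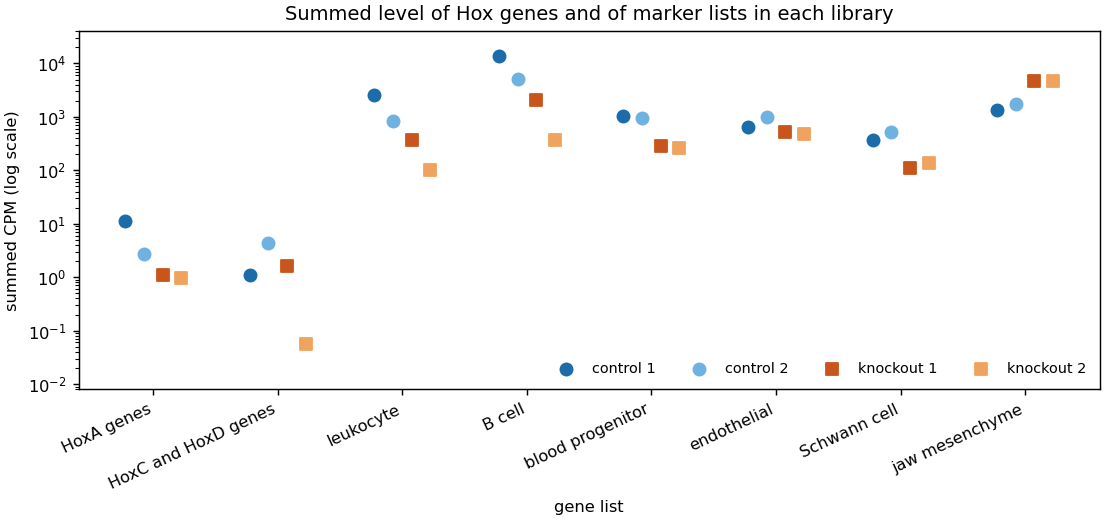
Summed TMM-scaled CPM on a log axis for HoxA, for HoxC with HoxD, and for 6 marker lists, with circles for controls and squares for knockouts. HoxA is highest in control 1 (11.3 CPM) and lowest in the knockouts (1.08 and 0.953 CPM, from 21 and 17 counts), while HoxC with HoxD peaks in control 2.

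A list of 24 transcription factor genes of the jaw and dental mesenchyme, homeobox genes for the most part, spanned a wide range of levels. All 24 were counted in at least 1 library and 23 in all 4, and they summed to 1368 and 1746 CPM in the controls against 4721 and 4630 in the knockouts. Msx1, which is needed for tooth development, was at 724 and 847 CPM against 2912 and 2525, and Msx2 at 87.4 and 81.4 against 484 and 359. Barx1, another tooth homeobox gene named after its values were seen, had 0, 1, 3 and 120 counts, nearly all in knockout 2. Dlx2 and Dlx3, homeobox genes of the branchial arches and the tooth, were at 77.2 and 123 against 184 and 490 CPM and at 88.6 and 79.7 against 205 and 161 CPM. Of 23 tested members of this list, 0 passed over all genes in edgeR, while 13 were higher and 0 lower by an unadjusted p below 0.05, beside 7.32% and 9.89% of all tested genes. Dental epithelium markers, mostly Ambn, summed to 63600 and 22812 CPM against 34901 and 42074. Chondrocyte markers summed to 485 and 328 against 634 and 952 CPM.

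Genes for the partners of HOX proteins were counted in every library. All 9 cofactor genes were tested and 0 were called by edgeR. At an unadjusted p under 0.05, 1 was lower and 0 were higher. Among all tested genes 9.89% were lower and 7.32% higher, so the cofactor count was near the background. The lower gene was Pknox1, with 80.4 and 86.7 CPM in the controls against 38.3 and 45.3 in the knockouts (log2 fold change -1.0, SE 0.33, adjusted p = 0.21). Meis3 had 36.0 and 49.7 CPM against 70.8 and 79.5. Meis1, the partner of Hoxa9 in blood progenitors, had 2.64 and 6.36 CPM in the controls against 2.56 and 0.168 in the knockouts. Pbx2, Pbx3, Pbx4, Meis2 and Pknox2 ranged from 0.973 to 13.8 CPM over the libraries. The ParaHox genes Cdx1, Cdx2, Cdx4, Gsx1, Gsx2 and Pdx1 were at 0 in every library.

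Within the clusters, 9 of 38 noncoding genes had a count and 0 passed the low-count filter. Hoxd3os1, an antisense gene that overlaps Hoxd3 and Hoxd4, was the one with at least 20 summed counts (3 and 14 in the controls, 4 and 6 in the knockouts). Hotair, the HoxC noncoding RNA, was singled out after its values were seen and had 8 counts in control 2 and 2 in knockout 1. The microRNA genes Mir10a, Mir196a-1, Mir196a-2, Mir196b and Mir615 were at 0, and Mir10b had 1 count. Polyadenylated RNA libraries do not measure mature microRNAs.

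Just outside the clusters, transcription was common. Of the 24 nearest protein-coding neighbours, 3 on each side of each cluster, 23 had a count and 21 were tested. The homeobox neighbours were the lowest: Evx1, next to HoxA, had 0 counts and Evx2, next to HoxD, had 1. Calcoco2, beside HoxB, had 4. Next to HoxA, Cbx3, Snx10, Hibadh and Tax1bp1 ranged from 13.6 to 464 CPM. Next to HoxC, Atf7, Atp5g2, Calcoco1, Smug1, Cbx5 and Hnrnpa1 ranged from 18.4 to 316 CPM. Next to HoxD, Atp5g3, Lnpk, Mtx2, Hnrnpa3 and Nfe2l2 ranged from 8.80 to 312 CPM. Next to HoxB, Atp5g1, Snx11 and Cbx1 ranged from 10.1 to 99.6 CPM, Ttll6 from 0 to 1.69 and Skap1 from 0.446 to 2.36. None of the 21 passed in edgeR. At an unadjusted p under 0.05, 1 was lower and 1 higher. Among all tested genes 9.89% were lower and 7.32% higher, so neither count exceeded the background. The lower gene was Skap2, an adaptor gene of blood cells beside HoxA (83.8 and 82.9 CPM against 26.2 and 17.1, adjusted p = 0.152). The higher gene was Ttll6 (adjusted p = 0.202).

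Of 29 genes that act on Hox expression, for KMT2, Polycomb and retinoic acid factors, 28 were counted in all 4 libraries and Pagr1a had 1 count in control 2. The 28 were tested and 0 were called by edgeR. At an unadjusted p under 0.05, 2 were higher and 3 lower, beside 7.32% and 9.89% of all tested genes, so these shares were near the background. The 3 lower genes were Paxip1 itself and 2 genes of Polycomb complex PRC2, named after their values were seen: Ezh2, with 88.4 and 93.2 CPM in the controls against 29.0 and 23.8 in the knockouts (adjusted p = 0.15), and Suz12, with 29.4 and 19.8 against 7.43 and 9.70 CPM (adjusted p = 0.191). The 2 higher genes were Rarg and, also named after its values were seen, Rarb, with 169 and 204 counts in the controls against 751 and 451 in the knockouts. Rarg, a retinoic acid receptor gene, was at 70.6 and 98.2 CPM in the controls against 169 and 242 in the knockouts. Kmt2d stood at 96.9 and 166 against 95.5 and 158 CPM, Rnf2, of Polycomb complex PRC1, at 64.5 and 145 against 131 and 112 CPM, and Kat7 at 117 and 110 against 68.8 and 87.9 CPM.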

How the data were processed

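Polyadenylated RNA was amplified with oligo-dT primers and template switching over 14 PCR cycles and fragmented with a transposase, per the labels' protocols, so neither strand nor molecules were marked. The deposited values were whole-number counts per Ensembl gene ID, not normalised. The notes name the trimmer Trim Galore 0.6.6, the aligner Bowtie2 2.3.5.1, build GRCm38 and the counter featureCounts 2.0.1, per the submitters' processing notes. For the annotation, strand setting and shared reads, the choice was not given in the sources used here.

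Symbols and coordinates came from GENCODE mouse M21 (GRCm38), which held 55141 of 55487 IDs. The test was edgeR 4.0.16 (R 4.3.3), quasi-likelihood, with TMM scaling, filterByExpr and genotype as the only term, two-sided, Benjamini-Hochberg adjusted over 17128 genes at 0.05. It was tested on simulated data with a smaller spread between libraries than these data, so its error rate here is not known from that. SE is the absolute log2 fold change over the square root of F. Alternatives were DESeq2 1.42.0, limma-voom 3.58.1, other scalings and filters, a replicate block and leaving out libraries. Replicates were not copies of one library: their counts differed beyond sampling noise, with a chi-square of 130 per gene in controls and 79.5 in knockouts.

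Named were all members with at least 20 summed counts, with the rest by count, up to 4 genes of highest mean CPM from each other list, and all cofactors, cluster noncoding genes and neighbours with at least 20 counts. Members and lists were chosen with earlier results of these data known. Promoters came from RefSeq, and no protein sequences were used. The values of 1 cofactor gene are not reported here.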

Additional observations from a re-analysis of the deposited data

How the results depend on the processing

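No Hox gene passed an adjusted p of 0.05 in any alternative that gave it an adjusted p. Hoxd9 had none in DESeq2 (unadjusted p = 0.0455) and was removed by the stricter filter, so it could not pass there. Over all genes, edgeR called 0 higher and 0 lower, also with other scalings, the stricter filter and limma-voom. It called 449 and 1005 without the low-count filter, where the prior degrees of freedom were infinite, and DESeq2 called 472 and 990. With 1 library left out, the calls ranged from 0 to 215 higher and from 0 to 703 lower: 0 and 0 when control 2 was dropped, 95 and 214 for control 1, 215 and 703 for knockout 1, and 15 and 1 for knockout 2. With the replicate block, edgeR called 59 and 185, and Hoxd8 was at 0.02. The labels name no pairing, the deviations of same-numbered libraries had a correlation of 0.145, and no Hox gene passed with the block. The log2 fold change of Hoxd8, -0.45, also changed sign in limma-voom (0.36) and without control 2 (6.66) or knockout 2 (0.53), and was -4.00 without knockout 1. Control 1 alone had 0 counts of it, so the value of 6.66 depends on the prior count. With 1 library left out, Hoxa9 ranged from -3.56 to -1.51. Hoxd9 ranged from -6.81 to -3.86, and was not kept without control 1. The cause of these changes was not tested.

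The number of counted members depends on the minimum. At 3 counts, 4 were counted in knockout 1, 1 in knockout 2 and 1 in all libraries, with 12 in at least 1 library. At 10 counts, controls 1 and 2 had 4 and 3, each knockout 1, at least 1 library 5 and all libraries 0. At 1 CPM the numbers were 4, 2, 1 and 0 in controls 1 and 2 and knockouts 1 and 2, with 5 in at least 1 library and 0 in all. At the CPM of 3 counts in the shallowest library, control 2 had 8, knockout 1 had 3, knockout 2 had 1 and all libraries 0. Of the 23 members that share no exon base with another gene, 4 were counted in control 1, 7 in control 2, 4 in knockout 1 and 1 in knockout 2, with 9 in at least 1 library and 0 in all. With 1 library left out, an alternative added after the data were seen, 12 (without control 2) to 17 members were counted.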
